A study of Mus musculus with 37 samples.

Results

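The effect of losing Cabin1 in the mouse oocyte was set beside the effect of injecting Zscan4d RNA, gene by gene, in 2-cell embryos. Each effect was the mean log2(FPKM + 1) of the treated or mutant group minus that of its control group, where FPKM are fragments scaled to the kilobases of gene span (introns included) and to library depth. A gene was taken if both 2-cell tables list it and its mean was at least 1 FPKM over the libraries of each table, which 3989 of 15029 genes listed in both tables met. Fgd6 and Ap1s1 lay just inside this limit, with 1.00 and 1.00 FPKM in the table where they were lower, and Pdcd7 and Gm43545 lay just outside, both with 0.999 FPKM. The comparison rests on 15 of the 37 samples of the series. CabZ KO embryos (4 libraries) came from females with Zp3-Cre and 2 floxed Cabin1 alleles, and CabZ Het embryos (4 libraries) from littermates with Zp3-Cre and 1 floxed allele, so the controls also carry Cre and lose 1 allele. Zp3-Cre is driven by an oocyte promoter, so that an allele brought by a sperm would be intact. Whether these CabZ embryos were fertilised or activated is not stated in the sources used here. Reads of Y-linked genes, which an embryo without a sperm genome lacks, numbered 274 to 692 per CabZ Het and 11 to 199 per KO library. The 2 comparisons may thus also differ in the presence of a paternal genome, which was not tested. Zscan4 OE embryos (3 libraries) and GFP embryos (4 libraries) came from wild-type oocytes at the germinal vesicle (GV) stage, injected with Zscan4d or GFP RNA, matured in vitro and activated without sperm. All were labelled C57BL/6, the ages of the females are not given in the sources used here, and the methods describe pools per library whereas the sample records speak of single cells. Nothing states that replicates came from separate females, so p-values measure the spread between these libraries, which may be technical. No library is shared by the 2 comparisons, and they were never measured in 1 table.

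Cabin1 is a subunit of the Hira complex, a chaperone that deposits the histone variant H3.3 in chromatin independently of DNA replication. Zscan4 proteins are zinc finger proteins made in a burst in 2-cell embryos, when the embryo's own genome is first transcribed and maternal RNA is cleared. Other genes of that burst are the Tdpoz and Usp17l families, Obox homeobox genes and many predicted multicopy genes, next to housekeeping genes for ribosomes and RNA processing whose transcription rises over the same stage.

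The libraries held 7947409 to 8239518 reads on genes in CabZ Het, 5819315 to 6330241 in CabZ KO, 9979872 to 21869857 in GFP and 9885417 to 14098137 in Zscan4 OE embryos, so that CabZ KO libraries were all shallower than their controls. Cabin1 itself lay under the limit. It measured 0.332, 0.229, 0.274 and 0.455 FPKM in CabZ Het replicates 1 to 4 and 0.181, 0.1499, 0.142 and 0.06397 FPKM in the KO replicates, without overlap (two-sided exact permutation p = 0.0286, the smallest that 4 against 4 libraries allow). Zscan4d, the injected gene, did not check the injection at this stage. Its values were 69.4, 134, 116 and 149 FPKM in GFP replicates A to D and 83.7, 84.3 and 70.3 FPKM in Zscan4 OE replicates A to C, and injected and embryonic RNA cannot be told apart in them. Of 8 two-cell embryo markers and 8 oocyte markers, all 16 had reads in every group. Cumulus and granulosa cell markers summed to 0.694 to 3.50 FPKM in CabZ Het and 1.13 to 2.70 FPKM in CabZ KO libraries, and the sperm markers to 3.95 to 7.29 and 2.92 to 3.32 FPKM. The Zscan4 table lists 2 of the 10 cumulus and granulosa markers, which summed to at most 0.157 FPKM, and 2 of the 5 sperm markers, at 1.34 to 2.10 FPKM. Of 4 Y-linked genes (Ddx3y, Eif2s3y, Uty and Kdm5d), 274 to 692 reads were present per CabZ Het library and 11 to 199 per KO library, whereas the Zscan4 table lists none of them. Zscan4 OE replicate B had a Pearson r of 0.939 to 0.944 with its own group, against 0.968 between A and C, and CabZ KO replicate 4 had 0.905 to 0.927 with the other KO libraries. The part of depth, of Y-linked reads and of these 2 libraries in the results was not tested beyond leaving libraries out.

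The 2 effects differed in size and agreed little across genes. Their SD over the 3989 genes was 1.19 for Cabin1 loss and 0.49 for Zscan4 injection on the log2 scale. DE genes were called at an FDR adjusted p under 0.05 with a fold change above 2 (limma). In CabZ KO embryos 805 of these genes were higher and 778 lower, where 16.9% and 20.4% of the 7798 genes tested in the whole CabZ table were called higher and lower. In Zscan4 OE embryos 1 gene was higher and 57 were lower, against 0.0233% and 1.42% of the 4293 genes tested in the whole Zscan4 table. The 57 lower genes became 17 to 98 with 1 library left out (17 without GFP replicate A, 98 without Zscan4 OE replicate C), 5 with no limit on low values and 2 with the replicate block. The split of the CabZ calls depends on the scaling. With each library shifted to the same median, 1075 genes were higher and 574 lower, and the median of all genes of the CabZ table moved from -0.11 to 0.13. Across genes, Pearson's r between the 2 effects was 0.16 and Spearman's rho also 0.16, and 55.3% of genes had the same sign in both. Genes are not independent replicates, and both axes share the gene span and the Smart-seq2 protocol. The coefficient was 0.12 over the 2867 protein-coding genes and 0.21 over the 790 pseudogenes.

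By counts, the agreement lay among lower genes, as a description that was not tested. Of the 778 genes lower in CabZ KO embryos, 493 were below 0 in Zscan4 OE embryos, with a median effect there of -0.15, whereas the median was 0.05 for the 805 genes higher in CabZ KO and 0.06 for the 2406 genes not called. All 4 GFP libraries lay above all 3 Zscan4 OE libraries for 19.8% of the genes lower in CabZ KO, and for 10.7% of all genes tested. Read the other way, the 57 genes lower in Zscan4 OE embryos had a median CabZ effect of -1.30, and 48 of them were below 0. The difference between the effects, tested per gene in 1 model, was called positive (CabZ effect above the Zscan4 effect) for 785 genes, 19.7%, and negative for 661, 16.6%. It was called negative for 554 of the 778 genes lower in CabZ KO and positive for 666 of the 805 higher ones. Of the 57 genes lower in Zscan4 OE, it was called positive for 16 and negative for 1. Each of these lists was chosen by the size of 1 of the effects that enter the difference. Zscan4 effects were small (SD 0.49), so most of the calls for the CabZ lists follow from that choice.

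**Figure D1:**
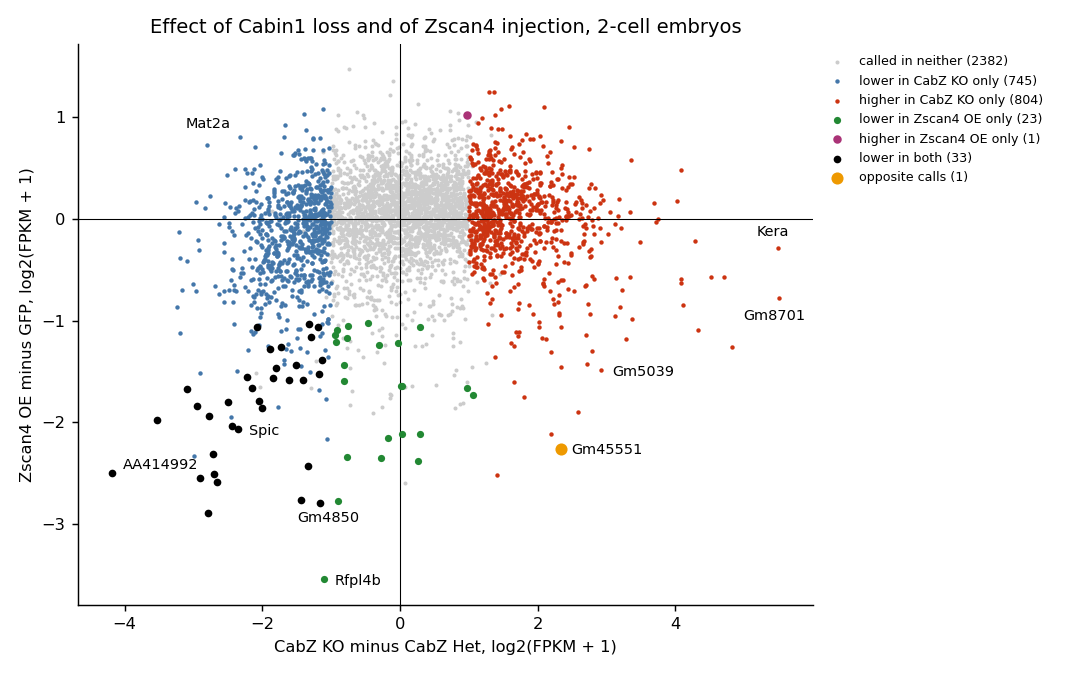
Each point is 1 of 3989 genes, with its effect in CabZ KO against Het embryos on the horizontal axis and in Zscan4 OE against GFP embryos on the vertical axis, both as differences of mean log2(FPKM + 1). Colours mark the DE calls; the 33 genes lower in both lie in the lower left, no gene was called higher in both, and Gm45551 alone was called in opposite directions.

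A set of 33 genes was lower in both comparisons, 4.24% of the genes lower in CabZ KO and 57.9% of those lower in Zscan4 OE embryos. No gene was called higher in both by limma. At an unadjusted p under 0.05, 137 genes were higher in both and 230 lower in both, while 86 were higher in CabZ KO and lower in Zscan4 OE and 59 the reverse. All 33 had non-overlapping groups in the Zscan4 comparison, and 32 of them in the CabZ comparison, which largely follows from their being called. Groups did not overlap for any of the 57 genes called lower in Zscan4 OE, nor for 737 of the 778 called lower in CabZ KO. Over all 3989 genes, 10.7% lay lower and 7.55% higher in Zscan4 OE without overlap. Their median effect was -2.05 after Cabin1 loss and -1.79 after Zscan4 injection, and the difference between the 2 effects was called for 3 of them. This count rests on few libraries. It was 12 without GFP replicate A, 13 without GFP B, 18 without GFP C, 18 without Zscan4 OE A, 19 without Zscan4 OE B and 46 without Zscan4 OE C. With no limit on low values it was 4 and with the replicate block 1. CabZ KO replicate 4 was the lowest KO library for 30 of the 33 genes. In pooled embryos, a lower level in every embryo and fewer embryos that hold the transcript cannot be told apart.

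Pramel4, Spic, Tdpoz1 and the Trim43 pair were protein-coding genes among the 33. Pramel4 (chr4, a member of the PRAME-like leucine-rich repeat family) measured 24.0, 22.4, 22.8 and 25.1 FPKM in CabZ Het and 5.19, 4.49, 4.34 and 1.28 FPKM in CabZ KO replicates 1 to 4. In the other table it measured 3.07, 3.53, 4.16 and 3.92 FPKM in GFP replicates A to D and 0.0931, 0.260 and 0.0536 FPKM in Zscan4 OE replicates A to C. The groups were apart in both tables, with the CabZ Het libraries nearly level and KO replicate 4 the lowest. The effect was -2.44 ± 0.30 (SE, FDR adjusted p = 0.000315) after Cabin1 loss and -2.04 ± 0.15 (adjusted p = 0.000529) after injection, and the difference of -0.40 ± 0.36 did not pass (adjusted p = 0.366). Spic, an Ets-family transcription factor, showed the same order of groups. Its values were 71.2, 114, 85.5 and 64.8 FPKM in CabZ Het and 20.5, 20.1, 18.03 and 7.15 FPKM in CabZ KO libraries. They were 5.99, 6.96, 4.90 and 4.25 FPKM in GFP and 0.391, 0.557 and 0.677 FPKM in Zscan4 OE libraries. The effects were -2.35 ± 0.34 (adjusted p = 0.000533) and -2.07 ± 0.18 (adjusted p = 0.00151). Tdpoz1 encodes a protein with TRAF and POZ domains and was at 20.6, 16.4, 12.6 and 22.6 FPKM in CabZ Het against 10.0, 7.04, 5.97 and 1.91 FPKM in KO embryos. In Zscan4 OE embryos it was at 0.686, 0.229 and 0.546 FPKM, below all GFP libraries at 2.84, 3.00, 3.55 and 2.59 FPKM. Trim43a and Trim43b, tripartite motif proteins both encoded on chromosome 9, had effects of -2.22 and -2.01 after Cabin1 loss and of -1.55 and -1.86 after injection, all called. Only reads that distinguish the copies can separate the 2 Trim43 genes, and how shared reads were counted is not given in the sources used here.

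The stretch from 250 bases before to 50 bases after the start of 3 of these genes, from RefSeq (GRCm38.p6), is shown. RefSeq promoters matched 10 of the 33 shared genes, as 11 entries. Capitals mark TATAA and TAATCC, the core letters of a TATA box and of sites for paired-type homeodomains, searched on both strands, so that GGATTA is TAATCC on the other strand.
Pramel4 (chr4:144058875-144059174, plus strand): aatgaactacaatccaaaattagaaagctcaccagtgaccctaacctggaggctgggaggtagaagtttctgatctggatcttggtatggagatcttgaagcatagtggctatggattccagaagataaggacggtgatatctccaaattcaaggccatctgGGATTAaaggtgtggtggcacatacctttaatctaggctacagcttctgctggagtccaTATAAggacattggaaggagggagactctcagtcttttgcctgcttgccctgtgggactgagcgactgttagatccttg
Tdpoz1 (chr3:93676234-93676533, minus strand): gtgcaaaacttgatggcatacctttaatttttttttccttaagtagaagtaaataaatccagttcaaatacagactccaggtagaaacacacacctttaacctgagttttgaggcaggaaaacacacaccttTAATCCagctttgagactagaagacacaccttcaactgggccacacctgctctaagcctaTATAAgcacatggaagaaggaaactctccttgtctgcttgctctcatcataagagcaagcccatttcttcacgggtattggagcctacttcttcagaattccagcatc
Trim43a (chr9:88580641-88580940, plus strand): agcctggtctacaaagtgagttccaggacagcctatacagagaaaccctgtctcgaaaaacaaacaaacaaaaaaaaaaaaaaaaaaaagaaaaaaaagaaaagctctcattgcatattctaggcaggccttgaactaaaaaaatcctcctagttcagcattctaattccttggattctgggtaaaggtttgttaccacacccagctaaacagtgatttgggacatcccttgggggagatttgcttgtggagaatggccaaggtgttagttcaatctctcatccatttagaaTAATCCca
Pramel4 holds TATAA 29 bases and Tdpoz1 58 bases upstream of the annotated start, and both hold TAATCC further upstream, at 88 and 118 bases. In Trim43a TAATCC begins at base 43 of the gene. The 3 stretches shown are the only ones of the 11 shared entries that hold TAATCC, so they do not stand for the rest. TAATCC was present in 3 of the 11 promoters of shared genes, in 7 of 22 of the genes lower in Zscan4 OE embryos, in 35 of 490 of the genes lower in CabZ KO and in 7.06% of all 32851 RefSeq promoters of this length. TATAA was present in 4 of 11, 9 of 22, 90 of 490 and 24.9%, in the same order. Among the 2850 promoters of genes tested in both comparisons, TAATCC was present in 6.67% and TATAA in 18.3%. The letters TGCACAC, searched likewise, were in 1 of the 11 and in 4.40% of all promoters. A match is a run of letters and was not tested as a site.

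Many of the other shared genes were short pseudogenes. Of the 33, 16 were annotated as pseudogenes (48.5%, against 19.8% of the 3989 genes) and 14 as protein coding, and their median gene span was 1192 bases, against 6072 bases over all genes. With values divided by the gene span, a limit of 1 FPKM is easier to reach for short genes. Of these 33, 5 pseudogenes lay within chr11:60560924-60667066 (Gm12621, Gm12622, Gm12624, Gm12625 and Gm12627), 3 Obox entries within chr7:14331436-15295549 (Obox8, Obox3-ps2 and Obox3-ps5), and Tdpoz1, Gm9125 and Gm5543 within chr3:93669333-94158722. The 5 pseudogenes on chromosome 11 each span 382 bases, and whether reads were shared between them was not tested. Gm12625 had the largest smaller effect of the pair, with 1338, 1317, 1275 and 1066 FPKM in CabZ Het and 194, 165, 337 and 93.4 FPKM in CabZ KO libraries. In the Zscan4 table it stood at 26.4, 27.1, 24.0 and 15.5 FPKM in GFP and 2.12, 0.455 and 6.28 FPKM in OE libraries. Its effects of -2.80 ± 0.34 and -2.89 ± 0.47 were nearly equal (difference 0.09 ± 0.61, adjusted p = 0.914), but the Zscan4 effect passed with an adjusted p of 0.0244 and lost its call without GFP replicate A, B or C or Zscan4 OE replicate A (adjusted p up to 0.0815). Obox8, of the family named oocyte-specific homeobox, fell from 298, 386, 374 and 327 FPKM in CabZ Het to 75.6, 54.1, 70.1 and 20.7 FPKM in KO embryos. Despite that name it averaged 0.0625 FPKM in CabZ Het GV oocytes, which were normalised separately. It was at 6.03, 11.1, 4.88 and 10.6 FPKM in GFP and 1.39, 0.956 and 1.52 FPKM in Zscan4 OE embryos (effects -2.77 ± 0.37 and -1.94 ± 0.27). AA414992, a transcript on chromosome 13, had the largest CabZ fall of the 33. It was at 80.6, 56.8, 50.2 and 59.4 FPKM in CabZ Het and 1.41, 6.69, 6.11 and 0 FPKM in KO libraries, and at 5.82, 8.50, 2.43 and 3.54 FPKM in GFP libraries, while all 3 Zscan4 OE libraries were listed at 0. The remaining pseudogenes and copies among the 12 leading genes were Gm11517 and Obox3-ps2, with CabZ effects of -3.53 and -2.95 and Zscan4 effects of -1.98 and -1.84. The Zscan4 call of Obox3-ps2 was lost in 6 of the fits with 1 library left out (adjusted p up to 0.119). Of the 12 leading genes, 5 lost their Zscan4 call at least once in this way and 0 their CabZ call.

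**Figure D2:**
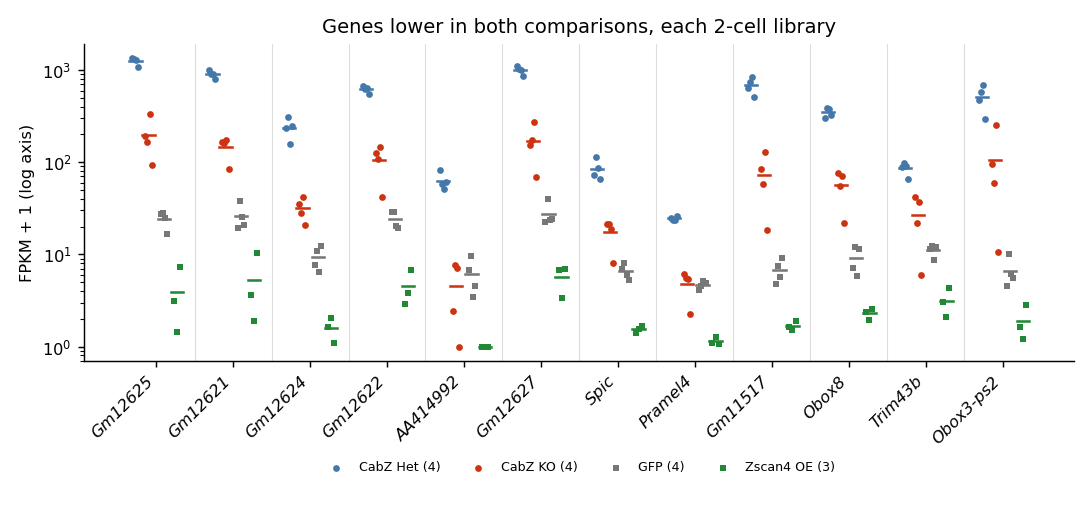
FPKM + 1 on a log axis in each 2-cell library for the 12 shared genes with the largest effect in the comparison where they changed less; points are libraries and lines are group means. For these 12 genes every Zscan4 OE library lies below every GFP library and every CabZ KO library lies below every CabZ Het library.

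Genes with a known housekeeping role among the 33 were Rpl41, Srsf7 and Uqcc3. Rpl41, a protein of the large ribosomal subunit, was at 895, 999.9, 1191 and 865 FPKM in CabZ Het and 279.8, 291, 401 and 324 FPKM in KO libraries. After injection it was at 15.95, 7.77 and 19.2 FPKM, against 40.03, 44.4, 47.2 and 38.2 FPKM in GFP libraries. The 2 effects, -1.61 ± 0.19 and -1.59 ± 0.27, differed by -0.02 ± 0.33 (adjusted p = 0.962). Srsf7 is a splicing factor with an RS domain and had effects of -2.08 ± 0.27 in CabZ KO and -1.06 ± 0.21 in Zscan4 OE embryos, and here the difference passed (-1.02 ± 0.35, adjusted p = 0.0282). Uqcc3, an assembly factor of respiratory complex III, had effects of -3.10 ± 0.54 and -1.67 ± 0.31. With 1 library left out at a time, the Zscan4 effect of Rpl41 lost its call 5 times and that of Srsf7 6 times.

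Effects on the Zscan4 family itself had opposite signs in the 2 comparisons. All 10 tested members were above 0 after Cabin1 loss, with a median of 0.92, and all 10 were below 0 after Zscan4 injection, with a median of -1.62, while the medians over all genes were 0.07 and 0.03. Of the 10, 3 (Gm7682, Zscan4e and Zscan4-ps1) were called higher in CabZ KO and none was called lower in Zscan4 OE embryos by limma with FDR adjustment. Of all 3989 genes, 20.2% were called higher in CabZ KO and 1.43% lower in Zscan4 OE, so these counts do not set a list of 10 apart. The difference between the effects was called positive for 8 of the 10, against 19.7% of all genes. Summed over the 10 genes, FPKM were 626, 838, 373 and 939.8 in CabZ Het replicates 1 to 4 and 1526, 1450.0, 1309 and 362 in the KO replicates, so that KO replicate 4 lay below all Het libraries. In the other table the sum was 599.7, 852, 988 and 921 FPKM in GFP and 480.4, 149.9 and 398 FPKM in Zscan4 OE libraries, without overlap and with replicate B the lowest. Without replicate B the median Zscan4 effect was -0.84, and without CabZ KO replicate 4 the median CabZ effect was 1.39. The copies are near-identical, and reads from 1 copy can be counted for another.

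Zscan4c was at 98.7, 134, 53.7 and 187 FPKM in CabZ Het and 287, 235, 256 and 71.5 FPKM in KO libraries. In Zscan4 OE embryos it was at 116, 7.93 and 65.4 FPKM, against 101, 163, 159.6 and 184 FPKM in GFP embryos. Groups overlapped in both tables, and neither effect passed (0.80 ± 0.50, adjusted p = 0.199, and -1.86 ± 0.74, adjusted p = 0.221), although their difference did (2.66 ± 0.96, adjusted p = 0.0327). Zscan4f was similar, with a difference of 2.16 ± 0.81 (adjusted p = 0.0396). With 1 library left out at a time, the difference lost its call 8 times for Zscan4c and 9 times for Zscan4f. Zscan4a, another member, was at 67.2, 53.3, 81.5 and 70.5 FPKM in GFP and 30.2, 3.298 and 9.70 FPKM in Zscan4 OE libraries (-2.60 ± 0.55, adjusted p = 0.0568, not called), next to a CabZ effect of 0.07 ± 0.39. Zscan4d had effects of 0.10 ± 0.47 in the CabZ table and of -0.50 ± 0.26 in the Zscan4 table (adjusted p = 0.307), where it includes any injected RNA left.

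The promoters of Zscan4c and Zscan4d (RefSeq, GRCm38.p6) are shown, with TATAA in capitals as above, since reads of these copies are hard to separate and their stretches are alike.
Zscan4c (chr7:11005495-11005794, plus strand): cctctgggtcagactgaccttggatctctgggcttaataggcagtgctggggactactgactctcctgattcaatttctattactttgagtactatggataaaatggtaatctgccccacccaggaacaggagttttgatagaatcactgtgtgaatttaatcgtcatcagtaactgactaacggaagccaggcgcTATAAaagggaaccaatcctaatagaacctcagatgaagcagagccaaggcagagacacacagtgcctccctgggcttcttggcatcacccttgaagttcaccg
Zscan4d (chr7:11166099-11166398, minus strand): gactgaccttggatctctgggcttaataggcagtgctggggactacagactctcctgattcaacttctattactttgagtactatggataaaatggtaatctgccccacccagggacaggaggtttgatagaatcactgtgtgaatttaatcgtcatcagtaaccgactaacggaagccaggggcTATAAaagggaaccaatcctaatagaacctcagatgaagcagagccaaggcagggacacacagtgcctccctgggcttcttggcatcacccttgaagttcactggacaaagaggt
The annotated starts are shifted against each other, and the longest run of letters shared by both was 55 bases. Zscan4c and Zscan4f shared a run of 127 bases. TATAA lies 54 bases upstream of the annotated start in Zscan4c and 65 bases upstream in Zscan4d, and neither window holds TAATCC.

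Of 70 other listed genes of the two-cell stage, 53 were tested in both tables. After Cabin1 loss 14 were higher and 8 lower (median 0.38), after Zscan4 injection none was higher and 5 were lower (median -0.71, and -0.42 without Zscan4 OE replicate B), and 2 were lower in both (Tdpoz1 and Gm4850). The CabZ shares, 26.4% higher and 15.1% lower, lay near those of all 3989 genes, 20.2% and 19.5%, whereas 9.43% were lower in Zscan4 OE against 1.43% of all genes. The difference was called positive for 23 and negative for 2 of the 53, against 19.7% and 16.6% of all genes. Summed over the 53 genes, Zscan4 OE libraries had 807, 479 and 891 FPKM, below the GFP libraries at 1133, 1195, 1227 and 1189 FPKM, while CabZ KO libraries had 3556, 4209.6, 3942 and 1611 FPKM around the CabZ Het libraries at 3258, 3558, 3017 and 3080.1 FPKM. Gm5039, a two-cell-stage gene on chromosome 12, was at 35.6, 11.2, 17.5 and 18.9 FPKM in CabZ Het and 193, 232, 159 and 74.2 FPKM in KO libraries, without overlap. In the Zscan4 table it was at 71.9, 75.1, 70.4 and 59.6 FPKM in GFP and 46.5, 7.96 and 35.5 FPKM in OE libraries, also without overlap. Its CabZ effect of 2.92 ± 0.41 passed (adjusted p = 0.000515), its Zscan4 effect of -1.49 ± 0.49 did not (adjusted p = 0.15), and the difference of 4.41 ± 0.69 did (adjusted p = 0.000249). Neighbours on chromosome 12 with the same pattern, named after their values were seen, were Gm8332, with effects of 2.71 and -1.43, and Gm2022, with 2.19 and -2.12, whose Zscan4 effects did not pass. In contrast Gm2001, also on chromosome 12, was lower in both (effects -1.16 and -2.79), although with 1 library left out its Zscan4 call was lost 5 times (adjusted p up to 0.0731) and its CabZ call once, without KO replicate 4, where the effect was -0.88. Gm16381, nearby, was called lower in Zscan4 OE (-2.78) and not in CabZ KO embryos (-0.90), with a difference of 1.87 ± 0.51 (adjusted p = 0.00808). Gm2001 and Gm16381 had the same values in GFP replicate B (68.1 FPKM) and in Zscan4 OE replicates A and B (5.22 and 4.56 FPKM). Their Zscan4 effects are thus not independent measurements.

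Gm45551 was called in opposite directions. This unprocessed pseudogene at chr7:11478208-11479568 lies in the chromosome 7 region of the Zscan4 genes, and it was at 16.8, 3.16, 6.75 and 22.5 FPKM in CabZ Het and 86.6, 88.9, 52.1 and 19.6 FPKM in CabZ KO libraries, of which KO replicate 4 fell within the Het range. It was at 12.6, 10.96, 13.4 and 15.995 FPKM in GFP and 3.24, 0.605 and 2.78 FPKM in Zscan4 OE libraries, without overlap. The effects were 2.33 ± 0.62 (adjusted p = 0.0106) and -2.26 ± 0.32 (adjusted p = 0.0154), and they differed by 4.59 ± 0.78 (adjusted p = 0.000446). Without GFP replicate A no gene was called in opposite directions, and without Zscan4 OE replicate C 7 genes were, so the number itself is poorly fixed.

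Of the 5 largest positive differences, 4 lay in a run of predicted genes on chromosome 10. Within chr10:100297941-100382561, all 11 tested genes were called higher in CabZ KO embryos and all 11 had a positive difference, a set described after its values were seen. Of all 3989 genes, 20.2% were called higher there and 19.7% had a positive difference. The mean of these 11 genes in CabZ Het libraries was at most 2.17 FPKM. Those under 1 FPKM there, such as Gm8701 with a mean of 0.471, passed the limit of 1 FPKM only through the KO libraries. That all 11 were higher thus follows in part from the limit. Their CabZ effects ranged from 2.34 to 5.51 and their Zscan4 effects from -1.89 to -0.08, of which none was called. Gm8701 led the 11 genes. It was at 0.00587, 1.88, 0 and 0 FPKM in CabZ Het libraries and at 64.3, 129.5, 46.0 and 30.0 FPKM in CabZ KO libraries. It was at 54.9, 36.9, 67.4 and 56.8 FPKM in GFP and 63.6, 14.8 and 29.3 FPKM in Zscan4 OE libraries, so that CabZ Het stood apart from the other 3 groups. The difference was 6.29 ± 0.70 (adjusted p = 2.54e-05). Gm8711, Gm4302 and Gm4301 followed with differences of 6.08 ± 0.75, 5.42 ± 0.68 and 5.27 ± 0.66, and Gm4308 is a further copy with a CabZ effect of 4.52. Gm4301 and Gm4308 had the same CabZ Het values in all 4 libraries, so these copies are not independent measurements. Kera, which encodes keratocan, a proteoglycan of the cornea, lies on the same chromosome at chr10:97606879-97613693. It was at 0.277, 0.240, 0.0368 and 0.356 FPKM in CabZ Het and 44.8, 56.5, 57.4 and 58.9 FPKM in KO libraries. In GFP and Zscan4 OE libraries it was at 2.11, 1.30, 1.36 and 1.02 and at 1.41, 0.823 and 0.766 FPKM (effects 5.50 ± 0.17 and -0.29 ± 0.19, difference 5.78 ± 0.25, adjusted p = 1.31e-09).

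Ddit3 and Gadd45g were higher after Cabin1 loss and were not called after injection. Ddit3, the transcription factor CHOP of the integrated stress response, was at 10.6, 4.65, 4.68 and 13.7 FPKM in CabZ Het and 26.9, 30.0, 29.5 and 22.8 FPKM in KO libraries. In the Zscan4 table the order was the other way, with 11.3, 8.01, 7.13 and 6.05 FPKM in GFP and 5.87, 4.01 and 4.50 FPKM in OE libraries, which did not pass (-0.64 ± 0.22, adjusted p = 0.156). The CabZ effect was 1.71 ± 0.33 (adjusted p = 0.00202) and the difference 2.35 ± 0.42 (adjusted p = 0.00056). Gadd45g, a growth arrest gene, and Shmt2, a mitochondrial enzyme of serine metabolism, had CabZ effects of 2.19 and 1.79 and Zscan4 effects of -0.03 and 0.18. Of 18 tested genes listed for the integrated stress response and p53, 4 were higher and 2 lower in CabZ KO. None was called in Zscan4 OE embryos, where 1.43% of all genes were called lower. These CabZ shares, 22.2% and 11.1%, do not set the list apart from all genes (20.2% and 19.5%), and the medians were 0.23 and 0.22.

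**Figure D3:**
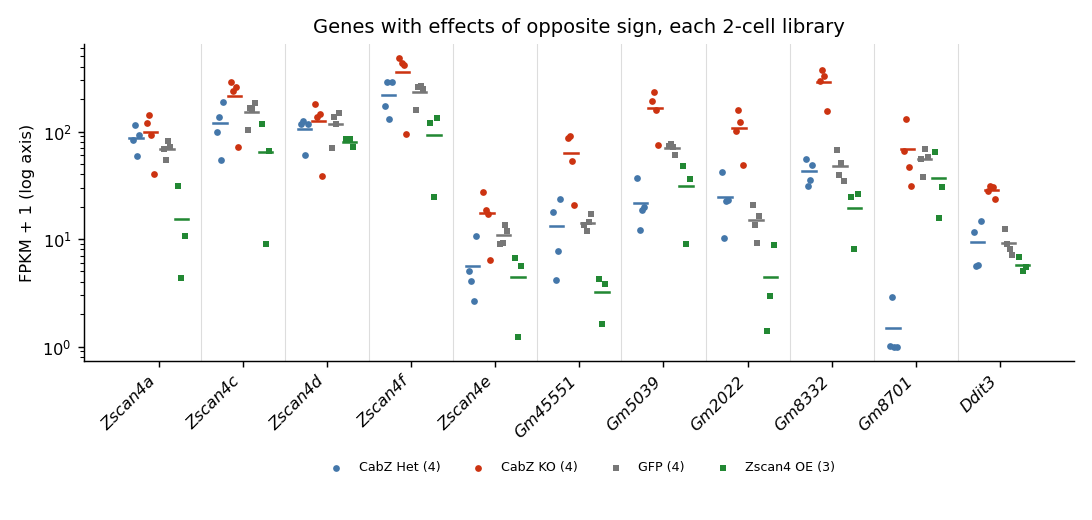
FPKM + 1 on a log axis in each 2-cell library for 5 members of the Zscan4 family, for Gm45551 and for genes with effects of opposite sign (Gm5039, Gm2022, Gm8332, Gm8701 and Ddit3); points are libraries and lines are group means. CabZ KO means lie above CabZ Het means and Zscan4 OE means below GFP means for every gene shown, with CabZ KO replicate 4 the lowest KO library for each of them.

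Most genes for cytosolic ribosomal proteins and for rRNA processing were lower after Cabin1 loss, and 1 of them was called after Zscan4 injection. Of 67 tested genes for cytosolic ribosomal proteins, 49 were lower in CabZ KO embryos (73.1%, against 19.5% of all 3989 genes, median -1.40). In Zscan4 OE embryos 1, Rpl41, was called lower (1.49%, against 1.43% of all genes). The median there was -0.35, with 55 of 67 below 0, and it was -0.12 without Zscan4 OE replicate B. Their summed FPKM were 4454, 5151, 5896 and 4377 in CabZ Het and 2287, 2283, 2548 and 2219.8 in KO libraries. In the Zscan4 table the sums were 923, 1016, 938 and 902 FPKM in GFP and 822, 503 and 822 FPKM in OE libraries, replicate B again the lowest. Rps19, of the small subunit, was at 40.4, 44.9, 56.6 and 47.1 FPKM in CabZ Het and 14.0002, 11.3, 12.05 and 8.70 FPKM in KO libraries. It was at 2.72, 2.39, 1.57 and 1.18 FPKM in GFP and 0.944, 0.110 and 1.43 FPKM in OE libraries, which overlap. The effects were -1.95 ± 0.19 (adjusted p = 0.000193) and -0.74 ± 0.29 (adjusted p = 0.221), and their difference was -1.22 ± 0.35 (adjusted p = 0.0113). Genes of rRNA processing and ribosome biogenesis, where 34 of 51 were lower in CabZ KO (66.7%, median -1.38), had a median of 0.01 after injection and no call. Nop16, a nucleolar protein, had effects of -3.17 ± 0.37 and -0.70 ± 0.22 (adjusted p of the latter 0.141), and Fcf1, needed for the small subunit, had -2.91 ± 0.29 and -0.31 ± 0.21. In CabZ KO embryos 17 of 49 mitochondrial ribosomal protein genes, 10 of 23 proteasome genes, 16 of 48 spliceosome genes and 14 of 39 genes of RNA polymerases, TFIID and Mediator were lower, with medians of -0.83, -0.87, -0.83 and -0.51 and shares of 34.7%, 43.5%, 33.3% and 35.9%. After injection Srsf7 was the 1 call among these 4 lists, and the medians lay between -0.10 and 0.06. Of 54 genes of oxidative phosphorylation, 10 were lower and 5 higher in CabZ KO (18.5% and 9.26%, against 19.5% and 20.2% of all genes). Cox7b, a subunit of cytochrome c oxidase, was called lower in Zscan4 OE embryos, and its effects of -0.46 and -1.03 did not pass the test of their difference (0.57 ± 0.34, adjusted p = 0.185). In CabZ KO embryos, 3 of 28 translation factors were higher and 8 lower (10.7% and 28.6%, against 20.2% and 19.5% of all genes). Of 24 housekeeping genes of zygotic activation, 2 were higher and 9 lower (8.33% and 37.5%). Chromatin regulators (0 higher and 2 lower of 12) and pluripotency genes (2 and 2 of 8) had counts too small to set them apart. These lists had no call after injection. With 1.43% of all genes called lower there, lists of this size without a call do not stand apart. Of the sperm list Prm2 alone was tested (effects 1.28 and -0.07). No imprinted, Y-linked or cumulus cell gene of the lists passed the limit in both tables.

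The largest negative differences were those of Gm14048, Mat2a, Smt3h2-ps4, Alppl2 and Aimp2. Mat2a makes S-adenosylmethionine, the methyl donor of the cell. It was at 16.6, 23.7, 19.7 and 18.9 FPKM in CabZ Het and 4.08, 4.27, 3.13 and 1.55 FPKM in KO libraries. It was at 1.88, 2.29, 1.66 and 1.41 FPKM in GFP and 2.97, 5.11 and 3.84 FPKM in Zscan4 OE libraries, higher without overlap, although this missed the threshold (0.81 ± 0.19, adjusted p = 0.0776). The difference was -3.14 ± 0.32 (adjusted p = 1.73e-05). Aimp2, a scaffold of the aminoacyl-tRNA synthetase complex, had effects of -2.76 ± 0.23 and 0.22 ± 0.26, and Alppl2, an alkaline phosphatase, had -3.21 ± 0.39 and -0.13 ± 0.23. Cdk1, the main mitotic kinase, was at 25.5, 25.1, 25.3 and 25.5 FPKM in CabZ Het and 6.31, 6.24, 7.62 and 2.83 FPKM in KO libraries, and its Zscan4 effect was 0.15 ± 0.14 (difference -2.17 ± 0.29, adjusted p = 9.48e-05). Of 40 tested genes of mitosis and the cell cycle, 13 were lower and 2 higher in CabZ KO and none was called in Zscan4 OE embryos (medians -0.37 and 0.10). The CabZ shares were 32.5% and 5.00%, against 19.5% and 20.2% of all genes, and 1.43% of all genes were called lower in Zscan4 OE embryos. Znhit3, a zinc finger protein of small nucleolar ribonucleoprotein assembly, was among the largest CabZ falls, with effects of -3.24 ± 0.30 and -0.86 ± 0.36.

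Many maternal transcripts were higher after Cabin1 loss, and none was called after injection. Of 62 tested oocyte-expressed genes, 28 were higher and 2 lower in CabZ KO embryos (median 0.95), none was called in Zscan4 OE embryos (median 0.11), and 27 had a positive difference. The CabZ shares were 45.2% higher and 3.23% lower, against 20.2% and 19.5% of all genes. A positive difference was called for 19.7% of all genes. Since 1.43% of all genes were called lower in Zscan4 OE embryos and 1 gene higher, a list of this size without a call there does not stand apart. The list does not stand for all genes that were lower in GFP embryos than in GV oocytes. Of those 690 genes, 94 were higher and 258 lower in CabZ KO (13.6% and 37.4%, median -0.67). That class is not one of declining maternal transcripts alone, since levels were compared across separately normalised tables. Rps19, for example, averaged 11.7 FPKM in GV oocytes and 1.97 in GFP embryos, but 47.2 in CabZ Het embryos. Ooep, of the subcortical maternal complex, was at 36.4, 23.3, 21.2 and 54.7 FPKM in CabZ Het and 173, 127, 168 and 446 FPKM in KO libraries. It was at 428, 288, 361 and 217 FPKM in GFP and 324, 325 and 433 FPKM in OE libraries, which overlap (effects 2.64 ± 0.42 and 0.19 ± 0.24, adjusted p of the difference = 0.0022). Mos, the kinase that holds oocytes in metaphase, had effects of 2.92 ± 0.53 and 0.23 ± 0.24. The summed FPKM of the 62 genes did not separate the CabZ groups, with 15270.5 to 28867 in Het and 24403 to 30421 in KO libraries. Ccnb1, cyclin B1, was 1 of the 2 lower genes, with effects of -1.68 ± 0.20 and -0.12 ± 0.18.

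**Figure D4:**
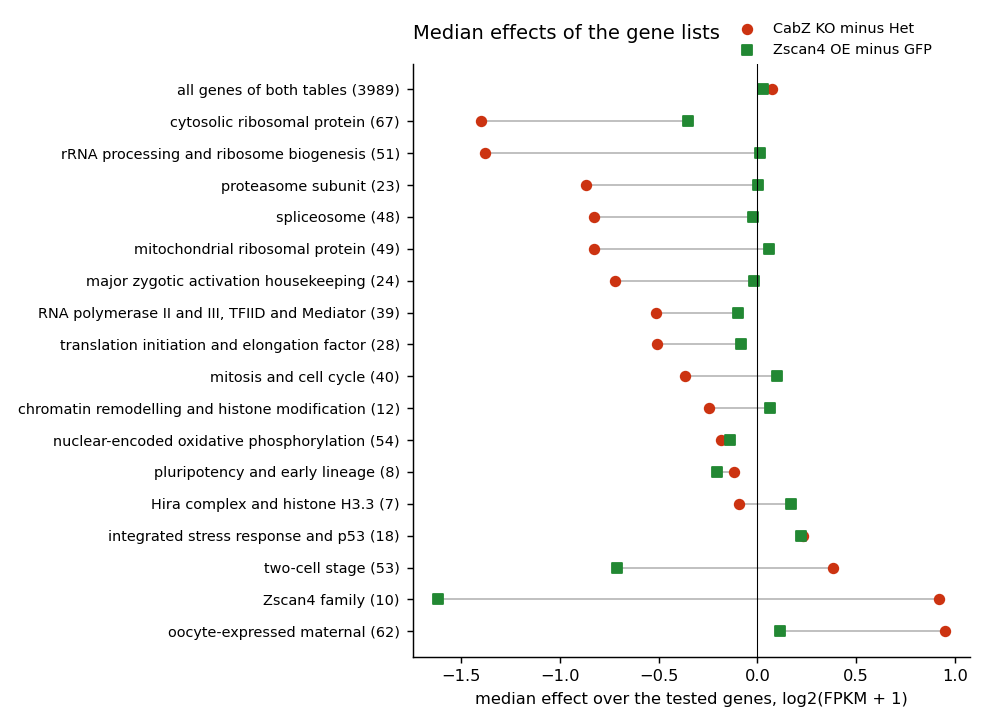
Median effect of each gene list with at least 7 genes tested in both tables, in CabZ KO against Het (circles) and Zscan4 OE against GFP embryos (squares), as differences of mean log2(FPKM + 1); the number of genes is in brackets. The Zscan4 family has medians of 0.92 and -1.62, the two-cell-stage list 0.38 and -0.71 and the cytosolic ribosomal protein list -1.40 and -0.35, and other lists also lie on opposite sides of 0 or below 0 in both.

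Called in the Zscan4 comparison and not in the CabZ comparison were 23 lower genes and 1 higher gene, which does not show that each effect differed. Rfpl4b, a ret finger protein-like gene with a RING domain, showed the largest fall, from 24.6, 26.8, 37.8 and 31.2 FPKM in GFP to 1.41, 1.13 and 2.55 FPKM in Zscan4 OE libraries (-3.54 ± 0.22, adjusted p = 0.000323). It was at 485, 529.8, 398 and 296 FPKM in CabZ Het and 205, 321, 455 and 45.9 FPKM in KO libraries, where KO replicate 4 was far below the others and replicate 1 also below the Het range (-1.11 ± 0.61, adjusted p = 0.151). The difference was 2.44 ± 0.74 (adjusted p = 0.0141). Gm4850, lower in both, fell more after injection, from 90.8, 118, 76.7 and 109 FPKM in GFP to 12.2, 13.1 and 15.2 FPKM in OE libraries. It was at 1004, 1191, 1131 and 1041 FPKM in CabZ Het and 545, 476, 550.2 and 178 FPKM in KO libraries, and the difference of 1.32 ± 0.42 passed (adjusted p = 0.0189). Hesx1, a homeobox gene of early embryos, and Fundc1, a mitophagy receptor, were named after their values were seen. Hesx1 had effects of -0.92 ± 0.29 in CabZ KO and -1.09 ± 0.21 in Zscan4 OE embryos, and Fundc1 0.01 ± 0.21 and -1.64 ± 0.27. Gm44878, the single higher gene, rose from 2.16, 3.21, 1.73 and 1.497 to 4.71, 5.62 and 5.51 FPKM (1.02 ± 0.20, adjusted p = 0.0453), with a CabZ effect of 0.98 ± 0.44.

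The 2 effects were also described by the change of each gene from the oocyte to the embryo. Levels in 4 libraries of CabZ Het GV oocytes were compared with the control embryos of the other comparison, so that no control set its own class, and classes were cut at a log2 difference of 2. The tables were normalised separately, which shifts the classes but not the effects. A gene lower in GFP embryos than in oocytes need not be lower in CabZ Het embryos, as the means of Rps19 and Mrpl28 were not. After Zscan4 injection, the median effect was -0.46 over the 479 genes higher in the embryo, 0.06 over the 2929 genes within the limits and 0.21 over the 421 genes lower in the embryo. The 160 genes that the oocyte table does not list had a median of -0.82. Of the 57 lower genes, 31 were higher in the embryo and 22 not listed for oocytes. These were 6.47% and 13.75% of their classes, against 1.43% of all genes called lower. After Cabin1 loss, the median was 0.00 over 156 genes higher in the embryo, 0.18 over 2983 genes within the limits and -0.67 over 690 genes lower in the embryo. Both directions were called in each class, with 31 higher and 38 lower genes in the first and 94 higher and 258 lower genes in the last. These were 19.9% and 24.4% of the first class and 13.6% and 37.4% of the last, against 20.2% and 19.5% of all genes.

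**Figure D5:**
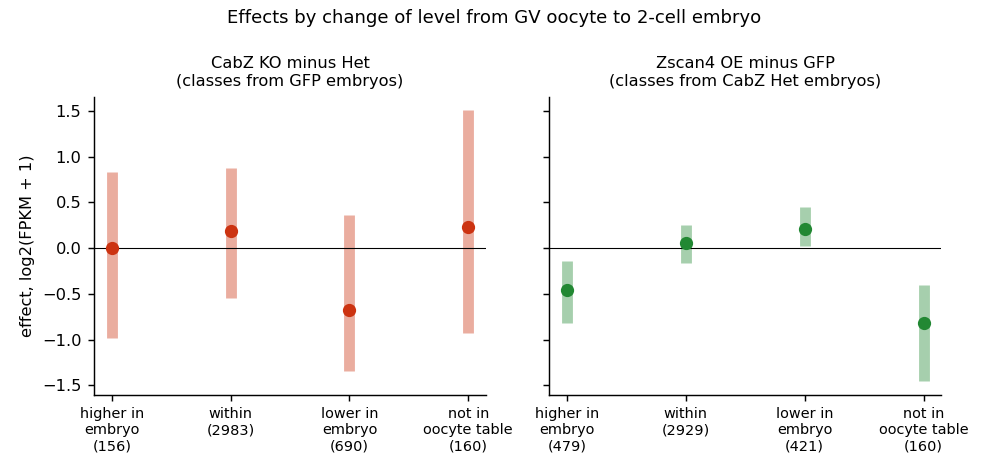
Median (point) and quartiles (bar) of each effect, as a difference of mean log2(FPKM + 1), for genes grouped by their change from CabZ Het GV oocytes to control 2-cell embryos; the number of genes is in brackets. Zscan4 effects fall from a median of 0.21 for genes lower in CabZ Het embryos than in oocytes to -0.46 for genes higher in them. CabZ effects have their lowest median, -0.67, for genes lower in GFP embryos than in oocytes.

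No gene of the Hira complex or H3.3 list was called in both comparisons. Of 14 listed genes, 7 were tested in both, and 2 of these were lower in CabZ KO (28.6%, against 19.5% of all 3989 genes). None was called in Zscan4 OE embryos, where 1.43% of all genes were called lower, and 33 of all genes were lower in both. Counts this small do not set the list apart. H3f3a, 1 of the 2 genes for H3.3, was at 77.0, 72.4, 75.1 and 68.8 FPKM in CabZ Het and 33.9, 31.8, 40.2 and 36.1 FPKM in KO libraries (-1.03 ± 0.16, adjusted p = 0.000689). It was at 30.2, 34.5, 38.0 and 32.4 FPKM in GFP and 37.1, 26.8 and 45.3 FPKM in OE libraries (0.08 ± 0.20, adjusted p = 0.844). H3f3b, which encodes the same protein, had effects of 0.34 ± 0.19 and 0.43 ± 0.18, and neither passed. Nasp, a histone chaperone, was the other lower gene (-1.41 ± 0.26 and 0.17 ± 0.16). Hira lay under the limit, with 143 to 199 reads per CabZ Het and 8 to 32 reads per KO library (0.233 ± 0.0348 and 0.0434 ± 0.0196 FPKM, SD, n = 4 each, two-sided exact permutation p = 0.0286), and with 3 to 12 reads in the GFP libraries and 12 to 18 in those of Zscan4 OE. Ubn1, the third subunit, was at 0.871 ± 0.182 FPKM in CabZ Het and 0.638 ± 0.159 FPKM in KO libraries (n = 4 each, exact permutation p = 0.114). In the Zscan4 comparison an exact test of 3 against 4 libraries cannot go below 0.0571. Cabin1 was at 0.0862 ± 0.0157 FPKM in GFP (n = 4) and 0.201 ± 0.0967 FPKM in Zscan4 OE embryos (n = 3, exact permutation p = 0.0571), without overlap and highest in replicate B. Duxf3, the Dux transcription factor gene of the two-cell stage, passed the limit with 0.787, 0, 0 and 0.135 FPKM in CabZ Het and 0.514, 4.84, 2.55 and 1.52 FPKM in KO libraries. It was called higher there (1.32 ± 0.39, adjusted p = 0.0171) although the groups overlapped, and its Zscan4 effect was 0.60 ± 0.24 (adjusted p = 0.221).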

How the data were processed

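RNA was amplified with a Smart-seq2 kit, and per the labels and the study's methods reads were aligned to mm10 with STAR 2.5.3a and quantified in Partek Flow. The authors deposited FPKM for the GFP and Zscan4 OE embryos, with 0.001 added, computed over the whole gene span. The deposited CabZ 2-cell values carried 0.01 and had been divided by the span a second time, so they were treated as a score and returned to FPKM: the 0.01 was subtracted, the value multiplied by the span and scaled over the library. The CabZ oocyte table, used for the classes by stage, was returned to FPKM in the same way. Tables of Hira oocytes and ATAC-seq peaks were not used here.

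Effects were tested with limma 3.58.1 (R 4.3.3) on log2(FPKM + 1), within each table, and their difference in 1 joint model over the 15 libraries. A call needed both more than 2-fold change and a p, adjusted after Benjamini and Hochberg, below 0.05. Adjustment ran over all 7798 and 4293 genes that passed the limit in each table, and over the 3989 shared genes for the difference. The scripts were tested on simulated data. Genes outside the model were tested by exact two-sided permutation. Low values were whole multiples of 1 read in 84.5% to 88.9% of cases (tolerance 0.1), which gave the reads per library. FPKM are not counts, so no count model was used. Precision is limited by 3 or 4 libraries per group.

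Named genes were at most 12 called in both per direction, the 5 largest differences each way, the 5 largest non-overlapping rises and falls of each comparison at a mean of at least 10 FPKM, genes the study names, and members of 21 gene lists called in both or otherwise the 2 with the largest called effect. Trim43a, Uqcc3, Cox7b, Ccnb1, Zscan4a and Gm44878 were added after their values were seen. Members and lists were chosen with earlier results of these data known. Alternatives were the pseudocount, the limit on low values, the scaling, a trend in the variance, the replicate block and leaving out each library.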

Additional observations from a re-analysis of the deposited data

Results flagged for a closer look

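Among 231 groups of 4 libraries, 15 had 1 library set apart from the other 3 by Dixon's criterion, which chance gives in about 1 of 20 groups. In CabZ KO embryos these were replicate 4 for Gm12621 (84.2 FPKM, the lowest), Zscan4f (92.8 FPKM, the lowest) and Ooep (446 FPKM, the highest), replicate 1 for Kera (44.8 FPKM, the lowest) and Gadd45g (24.3 FPKM, the highest), and replicate 3 for Psma6 (2.64 FPKM, the highest). In CabZ Het embryos they were replicate 2 for Gm8701 (1.88 FPKM), replicate 4 for Ldhb (25.1 FPKM) and for Gm4301 and Gm4308 (2.42 FPKM each), all the highest, and replicate 3 for Zscan4d (59.9 FPKM, the lowest). In GFP embryos they were replicate B for Gm12627 (39.0 FPKM) and Cenpa (11.7 FPKM), replicate C for Ldhb (105 FPKM), all the highest, and replicate A for Zscan4f (159 FPKM, the lowest).

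The effects differed between the 2 comparisons by the test of the difference itself for 785 genes in the positive and 661 in the negative direction (limma, adjusted p under 0.05 and over 2-fold). Among the named genes the positive log2 differences were 6.29 for Gm8701, 6.08 for Gm8711, 5.78 for Kera, 5.42 for Gm4302, 5.27 for Gm4301, 4.59 for Gm45551, 4.41 for Gm5039, 2.66 for Zscan4c, 2.35 for Ddit3 and 2.16 for Zscan4f. The negative ones were -3.53 for Gm14048, -3.14 for Mat2a, -3.13 for Smt3h2-ps4, -3.08 for Alppl2, -2.98 for Aimp2, -1.22 for Rps19 and -1.11 for H3f3a.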

How the results depend on the processing

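The calls of both comparisons moved with the limit on low values and the scaling. With a pseudocount of 0.1, 1 gene was higher in both and 2 were opposite. With no limit on low values, 1348 genes were lower in CabZ KO, 0 higher and 5 lower in Zscan4 OE, 4 lower in both and 0 opposite, and 1212 had a negative difference. At a mean of at least 5 FPKM, with 1559 genes tested, the CabZ calls were 421 higher and 294 lower, 0 were higher in Zscan4 OE, 19 lower in both, and 433 and 240 differences were positive and negative. With libraries shifted to the same median, 4 genes were higher in Zscan4 OE, 2 higher in both and 3 opposite, 59.7% had the same sign, and the higher share of the CabZ calls was 65.2% against 50.9%. Scaling the Zscan4 table to its own genes left 0 genes higher in Zscan4 OE, and quantile normalisation gave 2. On the adjusted p alone, 1253 genes were higher in CabZ KO, 4 in Zscan4 OE and 2 in both. The cause of these changes was not tested, beyond the fewer or more genes tested.

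With the replicate block, 0 genes were higher and 2 lower in Zscan4 OE, 1 lower in both and 0 opposite, in a fit where GFP replicate D has no partner and carries no weight. Same-numbered libraries did not deviate together throughout, with correlations of -0.04, -0.05, 0.13 and 0.01 in the CabZ and 0.11, -0.16 and 0.15 in the Zscan4 table, so the numbers were not taken to pair them.

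Leaving out 1 library at a time gave 745 to 848 genes higher and 711 to 854 lower in CabZ KO, 0 to 10 higher and 17 to 98 lower in Zscan4 OE, 0 to 2 higher and 12 to 46 lower in both, 0 to 7 opposite, 715 to 812 positive and 535 to 752 negative differences, r of 0.11 to 0.20, rho of 0.11 to 0.18 and 53.5% to 56.1% of genes with the same sign. The genes lower in Zscan4 OE numbered 17 without GFP A, 18 without GFP B, 30 without GFP C, 35 without Zscan4 OE A, 26 without Zscan4 OE B and 98 without Zscan4 OE C. Of the values of named genes under all alternatives, 4644 kept their direction and side of the threshold, 142 lost and 15 gained a call, and 0 reversed. The depth of 5819315 reads in the shallowest library and 3 Zscan4 OE libraries limit what small effects can be called.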

Other observations

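The correlation of the 2 effects across the 3989 genes varied with the library that stood for its group, given here as values with no test. With 1 Zscan4 OE library at a time against all GFP libraries, Pearson's r with the CabZ effect was 0.25 for replicate A, 0.10 for replicate B and 0.09 for replicate C. With 1 CabZ KO library at a time, r with the Zscan4 effect was 0.13, 0.09, 0.11 and 0.27 for replicates 1 to 4. Among the 263 genes that averaged 50 FPKM or more in both tables r was 0.20 and 49.0% of genes had the same sign.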
